A study of Mus musculus with 4 samples.

Results

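The cytosolic ribosomal proteins are the protein subunits of the ribosomes that translate nuclear-encoded mRNA. The 85 genes were chosen by symbol from the 23238 symbols of the count tables, as those named Rpl or Rps with a number and an optional letter suffix, with Rplp0, Rplp1, Rplp2 and Rpsa. The S6 kinases and the rows whose symbol ends in -ps were left out. Of the 85 genes, 52 encode proteins of the large subunit or their paralogues and 33 encode proteins of the small subunit or theirs. In all, 83 passed edgeR's filter on low counts and were tested, and the other two, Rpl3l and Rpl10l, were at or near the detection floor.

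Each ribosome carries a near-fixed set of these proteins around the ribosomal RNAs. Their mRNAs begin with a C and a run of pyrimidines, the terminal oligopyrimidine (TOP) tract, through which mTORC1 and the RNA-binding protein LARP1 set how strongly they are translated and how long they last. When a T cell leaves rest after antigen receptor stimulation, it grows and makes many new ribosomes before it divides, and the mRNAs of ribosomal proteins become some of the most abundant in the cell.

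Gene expression was compared between CD4+ T cells of wild-type mice (WT, 2 libraries) and mice lacking Pdk4 (labelled PDK4 KO, 2 libraries), all of strain C57BL/6j. Pdk4 encodes a mitochondrial kinase that restrains pyruvate oxidation. All 4 libraries came from naive cells of spleen and lymph nodes, isolated with magnetic beads. Stimulation lasted 48 hours and used IL-2 together with CD3 and CD28. Lexogen's QuantSeq kit, applied to 500 ng of RNA, reads the 3' ends of polyadenylated RNA, so that a count stands for a transcript and not for its length. The labels give no age or sex, no description of the Pdk4 allele, and no word on the animals or cultures behind the replicates. The p-values therefore rest on library-to-library variation that could be purely technical.

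Total counts lay between 8837810 and 9739624 per library, and 3 counts, taken as the floor of detection, were 0.308 to 0.339 CPM. Pdk4 itself had 1, 0, 0 and 2 counts in WT 1, WT 2, KO 1 and KO 2, all under that floor, so its counts check nothing about the labels. All 14 listed markers of CD4 T cells had counts, 2 of them rose in the knockout (Cd5 and Cd6; the call of Cd5 was lost in 4 of 16 alternatives, with upper quartile scaling and without WT 2, KO 1 or KO 2), and Cd4 was at 252, 254, 269 and 250 CPM in the same order. Of the 14 markers, 5 had fold changes below 0. Among these was Il2ra, which was not called in the main fit. It was called lower by DESeq2 (-0.21, adjusted p = 0.0303) and by limma-voom (-0.21, adjusted p = 0.0146). Its adjusted p reached 0.100 among the 12 alternatives that kept all 4 libraries. Levels here are CPM after TMM normalisation, written in the order WT 1, WT 2, KO 1, KO 2. Replicates were not copies of each other, since the chi-square per degree of freedom between the member counts of 2 libraries was 13.6 for the WT pair and 17.96 for the KO pair. Between genotypes it was 12.9 for WT 1 and KO 1, 9.31 for WT 1 and KO 2, 12.6 for WT 2 and KO 2, and 32.9 for WT 2 and KO 1. Only the last was above the values within a genotype. These member values were scaled to the summed member counts, so a shift shared by all members does not enter them. Over all genes it was 5.40 and 5.45 within WT and KO, and 7.89 to 10.3 between genotypes.

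Promoter sequences from RefSeq (build GRCm38.p6) were at hand for 64 of the 85 genes. They run from 250 bases before to 50 bases after an annotated start. Promoters of 4 genes are shown because they span the responses described below. Rps27 and Rps24 had the smallest p-values of all members, Rpl26 also leaned lower (chosen after its values were seen), and Rpl22l1 had a value above 0. Capitals mark the longest run of C and T between 10 bases before and 50 after the start, the letters CCGGAA or their reverse complement TTCCGG, and TATAAA. In Rps27 the pyrimidine run overlaps TTCCGG. For Rps24 the first of 2 annotated starts is shown. Its marked run begins at base 39 counted from that start and is cut off by the end of the window. Around the second start the longest run is 7.
Rps27 (chr3:90213599-90213898, minus strand): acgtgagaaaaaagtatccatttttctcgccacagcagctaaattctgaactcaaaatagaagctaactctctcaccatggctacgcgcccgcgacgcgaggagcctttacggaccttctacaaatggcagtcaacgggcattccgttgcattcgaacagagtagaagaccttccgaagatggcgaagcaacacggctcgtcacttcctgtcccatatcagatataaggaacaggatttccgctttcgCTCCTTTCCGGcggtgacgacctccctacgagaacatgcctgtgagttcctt
Rps24 (chr14:24490428-24490727, plus strand): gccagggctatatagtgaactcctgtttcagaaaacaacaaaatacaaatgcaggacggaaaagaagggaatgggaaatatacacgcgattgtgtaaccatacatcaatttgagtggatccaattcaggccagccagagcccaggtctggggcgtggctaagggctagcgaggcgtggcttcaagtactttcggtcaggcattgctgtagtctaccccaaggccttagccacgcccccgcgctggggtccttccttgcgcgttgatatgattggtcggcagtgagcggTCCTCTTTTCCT
Rpl26 (chr11:68901316-68901615, plus strand): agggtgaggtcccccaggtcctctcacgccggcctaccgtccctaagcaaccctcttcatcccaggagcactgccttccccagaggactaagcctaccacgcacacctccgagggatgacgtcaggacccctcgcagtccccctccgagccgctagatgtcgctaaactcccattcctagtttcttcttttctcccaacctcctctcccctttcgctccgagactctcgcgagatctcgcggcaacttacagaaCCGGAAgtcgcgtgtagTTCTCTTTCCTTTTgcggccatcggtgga
Rpl22l1 (chr3:28805258-28805557, plus strand): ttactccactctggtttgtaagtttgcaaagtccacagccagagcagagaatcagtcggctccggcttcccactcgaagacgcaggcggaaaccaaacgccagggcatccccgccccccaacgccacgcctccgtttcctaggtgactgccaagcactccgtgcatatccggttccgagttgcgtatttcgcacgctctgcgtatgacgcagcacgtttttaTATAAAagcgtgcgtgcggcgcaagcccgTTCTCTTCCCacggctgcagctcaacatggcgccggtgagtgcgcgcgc

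A run of at least 8 C or T between 10 bases before and 50 after an annotated start was found for 45 of 64 members (70.3%), against 24.0% of 27025 genes. A run of at least 10 was found for 60.9% of members and 11.05% of all genes. The letters CCGGAA on either strand, the core that ETS factors such as GABP bind, occurred for 35 of 64 members (54.7%), against 16.7% of all genes. The letters GGGCGG on either strand, the core of the SP1 element, occurred for 62.5% against 38.2%. AAGATGG on either strand, which matches the YY1 core, occurred for 15.6% against 7.28%, and CACGTG, the E-box of MYC, for 9.38% against 8.09%. TATAAA, searched on the forward strand alone, was present for 9.38% of members and 9.77% of all genes. The median log2 fold change was -0.12 for the 44 tested members with a run of at least 8 and -0.07 for the 18 without one. It was -0.11 with a run of at least 10 and -0.07 without, and -0.11 with AAGATGG and -0.09 without. The gap went the other way for CCGGAA (-0.08 with, -0.096 without), GGGCGG (-0.08 and -0.12) and CACGTG (-0.08 and -0.10). It also did for TATAAA, at 0.01 in 6 members with it and -0.10 in 56 without. These values describe the genes, with no test.

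Ribosomal protein mRNAs made up a slightly smaller part of the knockout libraries. They took 11.2% and 11.5% of all counts in WT 1 and WT 2, and 10.7% and 10.98% in KO 1 and KO 2. The genotypes did not overlap, but WT 1 was closer to KO 2 than to WT 2. The KO mean minus the WT mean was -0.519 percentage points, and -0.326 without WT 2. With 2 libraries against 2 the exact permutation test cannot pass 0.05, so none is given. The large subunit took 6.66% and 6.91% in WT and 6.396% and 6.58% in KO, and the small subunit 4.50% and 4.63% in WT and 4.29% and 4.40% in KO. The ratio of large to small subunit counts was 1.48, 1.49, 1.49 and 1.496 in the 4 libraries. Fewer transcripts per cell and fewer cells with many such transcripts cannot be told apart in bulk RNA.

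**Figure D1:**
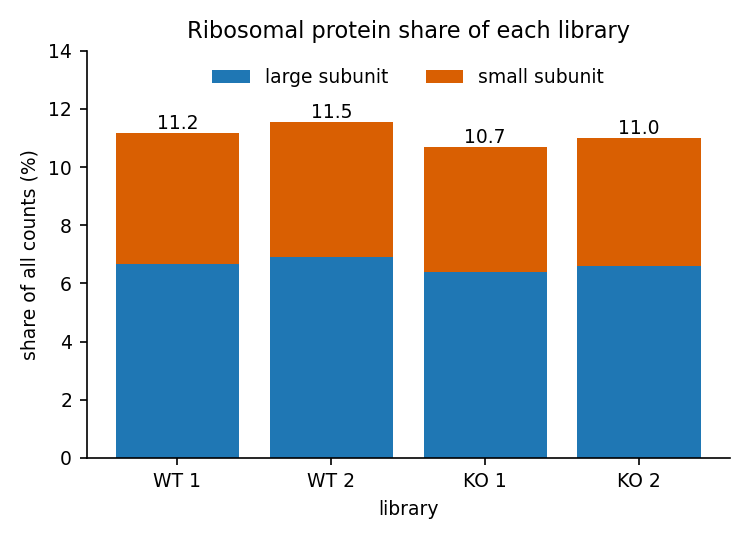
Share of all counts, in percent, that fell on cytosolic ribosomal protein genes in each of the 4 libraries, with the large subunit below and the small subunit on top of each bar. The bars reach 11.2% and 11.5% in WT and 10.7% and 10.98% in KO, and both subunits are lower in each KO bar than in either WT bar.

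No single member passed the test between genotypes, although nearly all leaned the same way. By the quasi-likelihood F-test of edgeR, adjusted by Benjamini-Hochberg over 11464 genes, 0 of 83 members were called, that is, had an adjusted p under 0.05. The background was 2.66% of all tested genes (1.45% higher and 1.21% lower) and 6.27% of the 1881 genes with at least 100 CPM. At an unadjusted p under 0.05, 22 members were lower and 0 higher in the knockout, which is 26.5% of the 83, while 6.68% of all genes and 13.2% of those with at least 100 CPM were lower at that threshold. DESeq2 called 0 members and limma-voom called 4 (Rps24, Rps27, Rpl26 and Rpl4, all lower in the knockout). The fitted difference was below 0 for 74 of 83 members, against 49.9% of all tested genes and 53.6% of those with at least 100 CPM.

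The differences were small. The median log2 fold change of the members was -0.095, with quartiles of -0.13 and -0.04, beside a median of 0.00041 and quartiles of -0.18 and 0.18 over all tested genes. Among the 1881 genes with at least 100 CPM the median was -0.01, with quartiles of -0.11 and 0.09. The large and small subunit medians were both -0.095. In 53 of the 83 members both knockout libraries lay below both WT libraries, and in 1 both lay above. Such separation in either direction was seen for 43.4% of all genes, and downward for 21.9% of all genes and 29.9% of those with at least 100 CPM. Members share their libraries, so a library that is high or low in all of them adds to each of these counts.

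For the 80 members with at least 100 CPM the median standard error was 0.0643 on the log2 scale, against 0.0909 for all genes of that level. The 95% interval of the log2 fold change stayed inside 0.58 in either direction (1.5-fold) for all 80 of them, as it did for 97.2% of all genes of that level, and inside 0.32 for 74. The exceptions to the narrower bound were Rps27, Rps21, Rps24, Rpl11, Rpl17 and Rpl37a, whose intervals reached further down. Intervals are not adjusted for the number of genes.

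**Figure D2:**
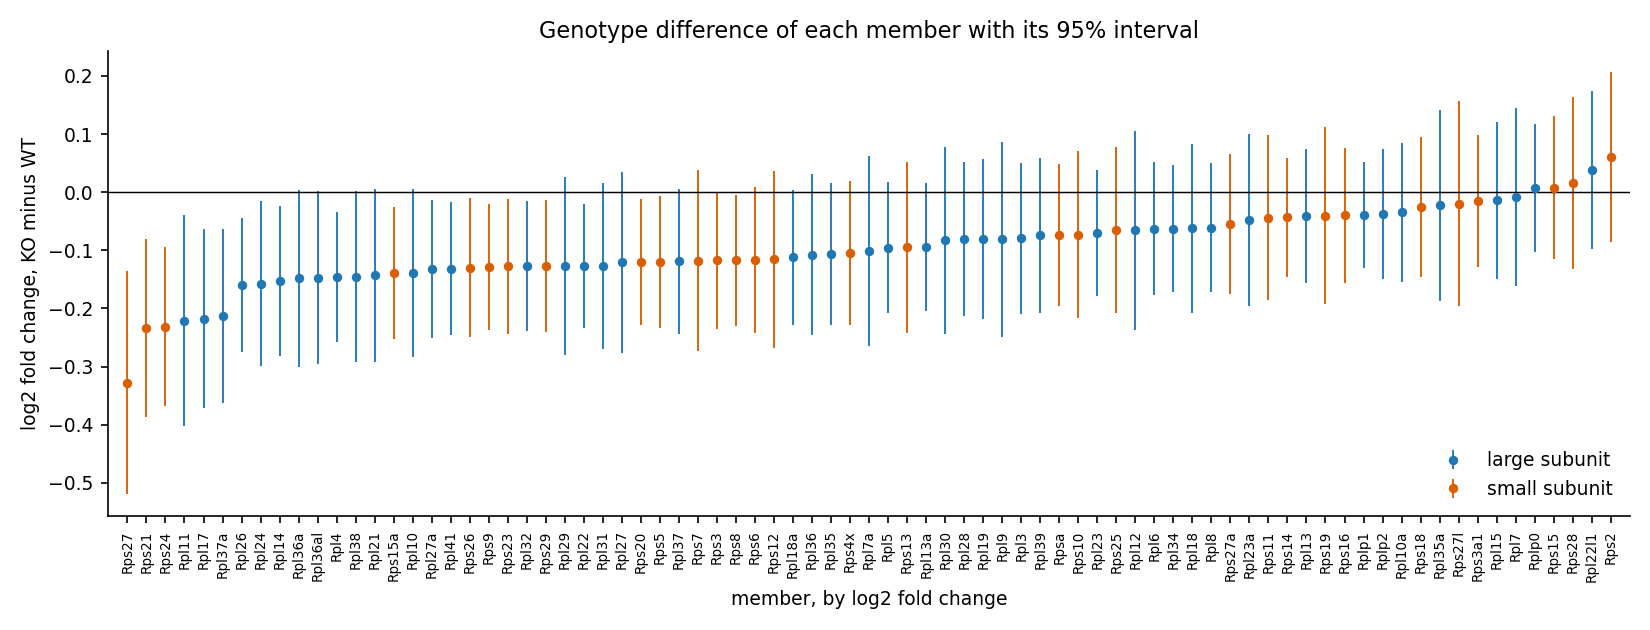
Log2 fold change of KO minus WT for 79 of the 80 members with at least 100 CPM, ordered by size, with 95% intervals from edgeR and the subunit in colour. Of these, 74 lie below 0, and Rps27 is the lowest at -0.33.

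The libraries of a genotype also differed from each other in these genes. In WT, replicate 2 was above replicate 1 for 63 of the 80 members with at least 100 CPM, with a median log2 ratio of 0.06. In KO, replicate 2 was above replicate 1 for 50 of 80, with a median of 0.02. Between genotypes, the median was -0.05 for KO 2 over WT 1 and -0.15 for KO 1 over WT 2, the pair farthest apart. KO 1 over WT 1 gave -0.08 and KO 2 over WT 2 gave -0.11. The smallest gap between the genotypes was thus about as large as the gap between the WT libraries. The median log2 fold change was -0.07 without WT 2 and -0.13 without WT 1, and the number of members called was 0 and 9.

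**Figure D3:**
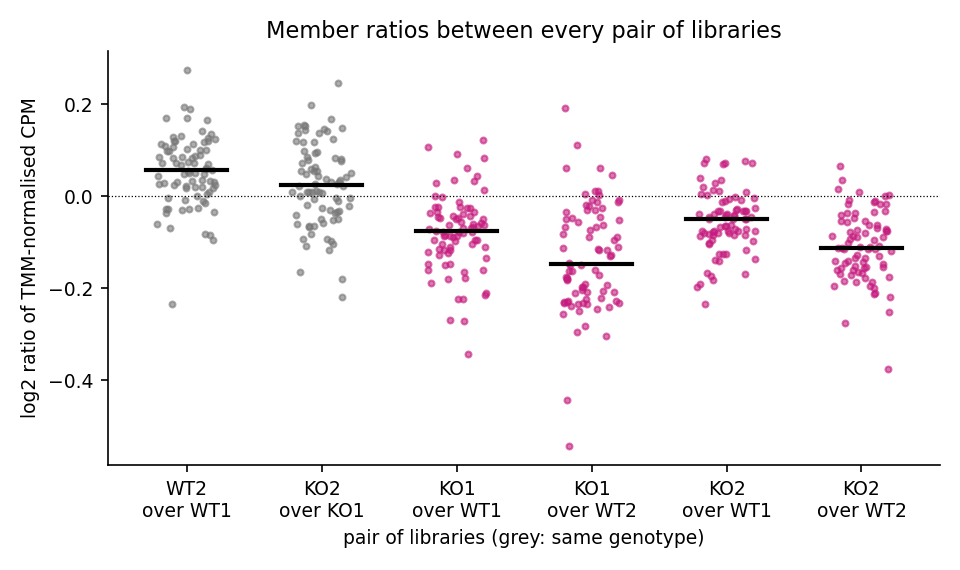
Log2 ratio of normalised CPM between each pair of libraries, 1 point per member with at least 100 CPM, with the median as a black bar. The pairs within a genotype (grey) have medians of 0.06 and 0.02, and the pairs between genotypes lie between -0.05 and -0.15.

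Of the small subunit proteins, Rps27, Rps24 and Rps21 had the most negative fold changes. Rps24, whose human counterpart is mutated in some patients with Diamond-Blackfan anaemia, was at 1885, 2122, 1561 and 1852 CPM. The groups did not overlap, but KO 2 came close to WT 1. The fitted log2 difference was -0.23 (SE 0.0671, adjusted p = 0.0564). Rps24 lies on chromosome 14 (24487125 to 24496959, GRCm38), and the last 200 bases of the transcript chosen for it share no 36-base word with any other annotated gene. That does not show that its counts are unique, since Rplp2 also shares no word and has a copy row with more counts. Rps24 passed the test in 6 of 16 alternatives, and its adjusted p over all of them ran from 1.3e-04 without WT 1 to 0.706 with DESeq2. Without KO 1 its log2 fold change was -0.11 and without WT 2 it was -0.15.

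Rps27, a zinc-binding protein of the small subunit, was at 205, 248, 170 and 191 CPM. WT 2 stood highest and both knockout libraries were below WT 1. The fitted log2 difference was -0.33 (SE 0.0945, adjusted p = 0.0547), and it was -0.18 without WT 2. All 36-base words in the last 200 bases of Rps27 (chromosome 3, 90212522 to 90213651, GRCm38) occur in other genes, 11 in all, and the row Rps27rt, which is near-identical, held more counts than Rps27. The value of Rps27 is therefore uncertain. With the counts of both rows added, which gave 5298, 6512, 5493 and 5237, the log2 difference was -0.19 (SE 0.0712, adjusted p = 0.188).

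Rps21 was at 365 and 370 CPM in WT and at 315 and 310 in KO, with the replicates close together and a fitted log2 difference of -0.23 (SE 0.075, adjusted p = 0.101). At the other end of the small subunit, Rps2 had 588 and 555 CPM in WT and 633 and 559 in KO. The genotypes overlapped, with a log2 fold change of 0.06. Rps2 was the member at 100 CPM or more with the highest value, and it fell on the other side of 0 without KO 1 (-0.03). The sequence of its 3' end is shared with 63 other genes, most of them pseudogenes, so its value is uncertain too.

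Rps6 is the subunit that S6 kinases phosphorylate downstream of mTORC1. It was at 1045, 1038, 972 and 949 CPM, with both knockout libraries lower (-0.12, adjusted p = 0.414). Rpsa, also known as the laminin receptor, was at 1289, 1345, 1287 and 1216 CPM (-0.07, adjusted p = 0.668). Rps27a, which is made as a fusion with ubiquitin, was at 1340, 1349, 1317 and 1271 CPM (-0.06, adjusted p = 0.763). In each of these 3 genes both knockout libraries lay below both WT libraries, though for Rpsa KO 1 was next to WT 1.

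The stalk of the large subunit recruits the translational GTPases and is built from Rplp0, Rplp1 and Rplp2 on a base that includes Rpl12. Stalk mRNAs had a median log2 fold change of -0.04. Rplp1, the most abundant member, was at 7788 and 7917 CPM in WT and 7563 and 7729 in KO (-0.04, adjusted p = 0.791). Rplp0 was at 2230, 2283, 2252 and 2285 CPM, with the genotypes interleaved (0.0075, adjusted p = 0.977). Its fitted value was on the other side of 0 with upper quartile scaling and without WT 1 or KO 2. Rplp2 was at 2376, 2264, 2253 and 2268 CPM (-0.04, adjusted p = 0.843), and Rpl12 was at 222, 220, 212 and 210 CPM (-0.07, adjusted p = 0.817).

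Rpl5 and Rpl11 bind the 5S ribosomal RNA, and when ribosome assembly fails this particle inhibits the p53 ligase MDM2. Rpl11 was at 217 and 203 CPM in WT and at 171 and 189 in KO (-0.22, SE 0.0891, adjusted p = 0.238). Rpl5 was at 2404, 2490, 2365 and 2216 CPM (-0.10, adjusted p = 0.473). Of 11 tested genes of the p53 axis, among them Mdm2 and Cdkn1a, 0 were called, with a median of -0.05.

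All 8 listed proteins of the wall and rim of the peptide exit tunnel were lower in both knockout libraries than in both WT libraries. Their log2 fold changes ran from -0.22 to -0.05 with a median of -0.12, and 0 of them were called. Such separation was shared by 53 of all 83 tested members and by 29.9% of genes with at least 100 CPM, and the median of all members was -0.095. Rpl4, which reaches into the tunnel, was at 2867 and 2968 CPM in WT and at 2529 and 2746 in KO (-0.15, adjusted p = 0.189). Rpl26, at the rim, was at 2142 and 2298 CPM in WT and at 1934 and 2040 in KO (-0.16, adjusted p = 0.155). Both were named after their values were seen. Among the 18 members whose human counterparts are mutated in Diamond-Blackfan anaemia, a failure of red cell production, 16 were below 0 and 0 were called, with a median of -0.11. That is much the same share as among all 83 tested members, of which 74 were below 0 and 0 were called.

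Of the 6 tested paralogues, 4 had fold changes above 0 and 0 were called, while 72 of the other 77 tested members were below 0. Of all tested genes, 49.9% were below 0. Those above 0 include Rpl39l and Rps4l, with means of only 1.44 and 5.37 CPM. The values of Rpl22l1, Rpl39l and Rps4l each changed sign in a fit without 1 library. Rpl22l1, which can take the place of Rpl22, was at 691, 719, 751 and 697 CPM, with overlap between genotypes (0.04, 95% interval -0.10 to 0.17, adjusted p = 0.878). Rpl22 itself, an RNA-binding subunit that αβ T cell development depends on, was at 3081 and 3011 CPM in WT and at 2755 and 2825 in KO (-0.13, adjusted p = 0.255). The share of Rpl22l1 in the counts of this pair was 18.3% and 19.3% in WT and 21.4% and 19.8% in KO. Exact binomial 95% intervals, which cover counting error only, were 17.9 to 18.7, 18.9 to 19.7, 21.0 to 21.9 and 19.4 to 20.2. The genotypes did not overlap, but KO 2 was closer to WT 2 than to KO 1. Without KO 1 the fitted value of Rpl22l1 was -0.018. Of the 36-base words in the last 200 bases of Rpl22l1, 44.2% occur in 2 other genes. The row Gm15421, which shares some of them, held 1771, 1782, 1774 and 1658 counts. The shares within this pair are therefore uncertain.

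Rpl7l1, a nucleolar relative of Rpl7 with a part in ribosome assembly, was at 76.7 and 93.7 CPM in WT and at 94.4 and 98.5 in KO (0.18, SE 0.117, adjusted p = 0.55), and the gap between the WT libraries was wider than that between WT 2 and KO 1. The value was 0.042 without WT 1 and 0.329 without WT 2. Rpl7 was at 481, 471, 509 and 437 CPM (-0.0079). Rps27l, a p53-induced relative of Rps27, was at 197, 193, 194 and 191 CPM (-0.02), as abundant as the row of Rps27. The share of Rps27l within that pair was 48.9% and 43.7% in WT and 53.2% and 49.9% in KO. As for Rpl22l1, the genotypes did not overlap, but KO 2 was closer to WT 1 than to KO 1. The share is uncertain because the row of Rps27 is. Rpl36al was at 435, 446, 412 and 383 CPM (-0.15), and Rpl36a, which encodes a nearly identical protein, was at 381, 405, 347 and 362 CPM (-0.15). The share of Rpl36al within the pair was 53.3%, 52.4%, 54.2% and 51.4%. All 36-base words in the last 200 bases of Rpl36a, and 54.5% of those of Rpl36al, occur in other genes. This split is therefore uncertain.

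The remaining 4 paralogues were close to absent. Rpl10l had 1, 0, 0 and 1 counts, all under the floor, beside Rpl10 at 674, 771, 635 and 678 CPM. Rpl3l, a muscle form of Rpl3, had 3, 5, 0 and 0 counts, beside Rpl3 at 1382, 1525, 1302 and 1450 CPM. Rpl39l was at 1.2499, 1.37, 1.84 and 1.30 CPM beside Rpl39 at 762, 743, 731 and 699. Rps4l was at 5.91, 4.22, 6.13 and 5.22 CPM beside the X-linked Rps4x at 1170, 1210, 1095 and 1119. Rpl3l and Rpl10l were too low to be tested, and Rpl39l and Rps4l were not called (adjusted p = 0.943 and 0.925).

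Levels differed far more between members than between genotypes. Among the 80 members with at least 100 CPM, the mean level ran from 193 CPM for Rps27l to 7749 for Rplp1, a 40.1-fold range, although most proteins are present once per ribosome. Rplp1, Rps20, Rps14, Rps9 and Rpl22 were the 5 most abundant and made up 20.1% of all member counts. Rps20 was at 4274, 4672, 3977 and 4255 CPM, and Rps9 was at 3348, 3606, 3088 and 3272. Rps14 was at 4201, 4029, 4062 and 3926 CPM, which overlaps between genotypes. Of the 100 most abundant genes in these cells, 42 were members. The order was stable, as a member's rank among the 80 changed by a median of 3 places and at most 9 between libraries.

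**Figure D4:**
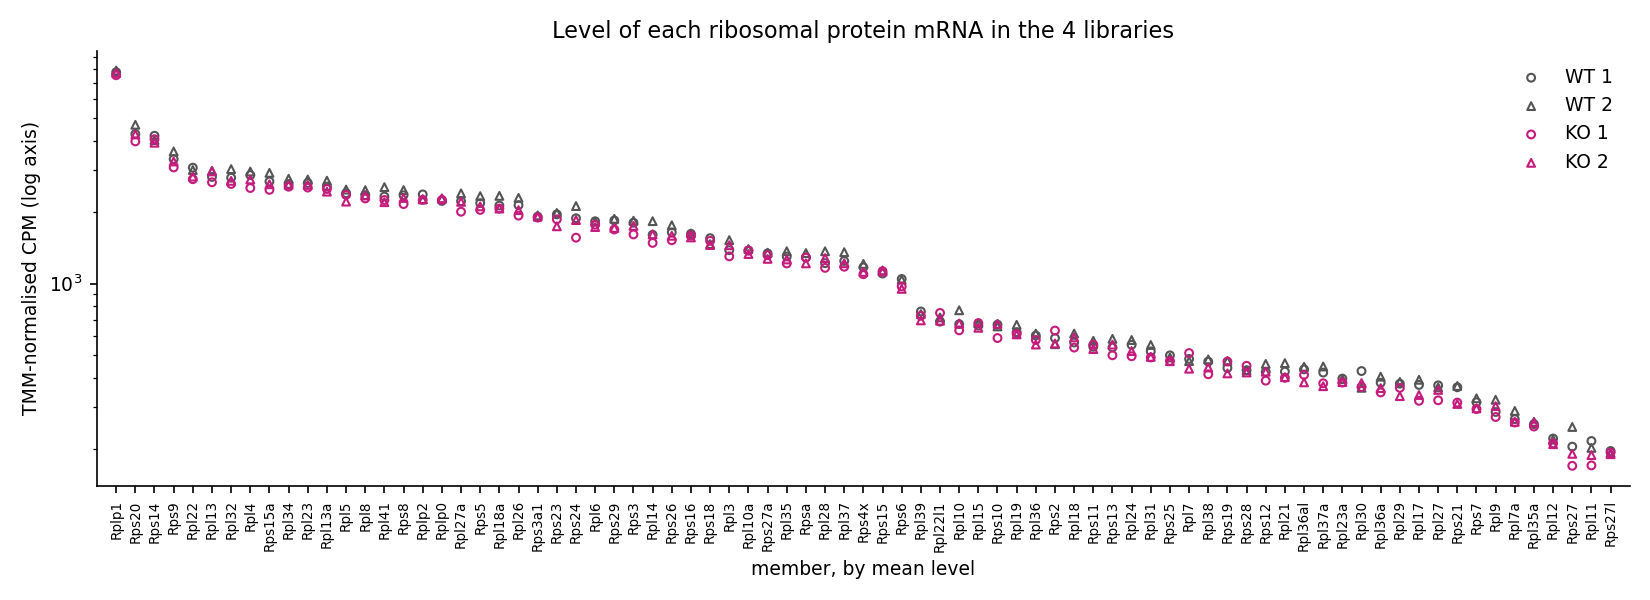
Normalised CPM (log axis) of 79 of the 80 members with at least 100 CPM in each library, ordered by mean, with WT in grey, KO in pink, circles for replicate 1 and triangles for replicate 2. The 4 marks of a member lie close together compared with the 40.1-fold range from Rps27l to Rplp1.

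Levels also differed with the structure of the 3' end. The 40 members with a last exon of up to 200 bases in GENCODE vM21 had a median of 580.4 CPM, and the 40 with a longer one had a median of 1617. Across the 80 members, Spearman's rho of last exon length with mean level was 0.40, in the same 4 libraries and with members that share read length and aligner. For 51 members, some 36-base words of the last 200 bases occur in another annotated gene, mostly pseudogenes. Their median level was 648.6 CPM, against 1752 for the 29 members with no shared word. How reads that cross a splice site or match several places were handled is not given in the sources used here, so levels cannot be compared between members as transcript numbers. The median log2 fold change was -0.12 in the 29 with no shared word, of which 28 were below 0, and -0.08 in the other 51, of which 46 were. These classes rest on a chosen transcript of each gene and do not mark members free of copies. The 29 include Rplp2, Rpl37, Rps15a, Rpl31 and Rpl14, for which rows named as copies held counts.

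**Figure D5:**
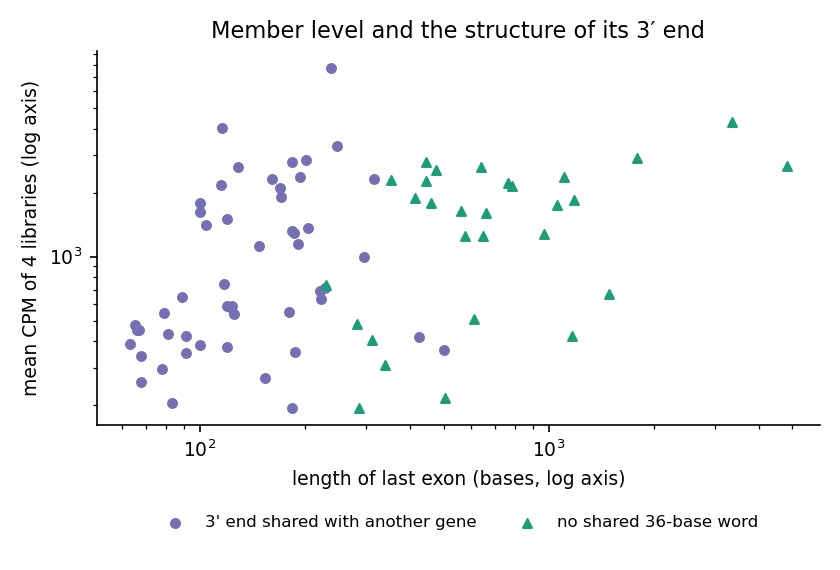
Mean CPM of the 4 libraries (log axis) against the length of the last exon (log axis) for the 80 members with at least 100 CPM, with triangles for members whose last 200 bases share no 36-base word with another gene. Members with a last exon of up to 200 bases have a median of 580.4 CPM and the others 1617.

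Rows named as copies of members, which the choice by symbol left out, held many counts. The row Rplp2-ps1 had 45815, 47632, 50057 and 45844 counts, more than the 20913, 21441, 22048 and 20862 of Rplp2. Rpl34-ps1 had 21558, 24674, 23134 and 22286 counts, close to Rpl34 itself at 23144, 26200, 25064 and 23975. Gm6654, which shares its 3' end with Rps26, had 14494, 14963, 14700 and 13163 counts beside 14472, 16673, 14898 and 14625 for Rps26. Rows ending in -ps took 0.863% to 0.884% of the libraries, and 0 of them were called. When the counts of 9 copy rows were added to the member of the same name, 74 of 83 members stayed below 0, 0 were called, and the median was -0.095.

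Other ribosomal proteins and genes of the pathway gave the following values. Rack1 (listed as Gnb2l1) and Fau, which encode ribosomal proteins under other names, were both below 0 (-0.10 and -0.09) and not called. Fau was at -0.16 without WT 1 and at -0.011 without WT 2. Of 22 other mRNAs and host RNAs with a TOP start, 13 were below 0 and 0 called, with a median of -0.05. Tpt1 was the one with the smallest p, at 2815 and 2822 CPM in WT and 2625 and 2558 in KO (-0.12, adjusted p = 0.288). The proteins of the mitochondrial ribosome, matched by symbol, had a median of -0.0097, with 41 of 77 below 0 and 0 called.

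Lists of translation factors and regulators had medians between -0.02 and 0.08. Of 10 factors of elongation, termination and recycling, 1 was called. Eif5a, which relieves stalled ribosomes and carries hypusine, rose from 739 and 732 CPM in WT to 895 and 838 in KO (0.24, SE 0.0649, adjusted p = 0.0391). The call was lost with upper quartile scaling (adjusted p = 0.0654) and without any 1 library (0.0561 to 0.439). Of 16 genes of mTORC1, LARP1 and the S6 kinases, 0 were called and the median was 0.08. In that list Tsc1, an inhibitor of mTORC1, was at 17.0, 17.5, 25.03 and 23.4 CPM (0.49, adjusted p = 0.285), and Mtor was at 27.6, 22.1, 17.5 and 19.6 CPM (-0.42, adjusted p = 0.382). Rps6kb1, an S6 kinase, was at 84.9, 96.2, 106 and 102 CPM (0.20, adjusted p = 0.445). Of 14 chaperones and importers of ribosomal proteins, 0 were called and the median was 0.05, with Ltv1, which helps Rps3 join the small subunit, at 52.8, 54.8, 68.9 and 67.8 CPM (0.34, adjusted p = 0.188) and Tsr2, the escort of Rps26, at 21.7, 23.3, 27.7 and 33.9 CPM (0.45, adjusted p = 0.271). Of 10 tested factors linked to ribosomal protein promoters, 0 were called, and Myc was at 19.3, 18.8, 18.4 and 27.3 CPM.

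Markers of other cells differed between the same libraries. Of 15 tested B cell markers, 11 fell in the knockout (among them Ms4a1, Cd79b, Ebf1, H2-Aa, H2-Ab1, H2-Eb1, Blnk, Fcer2a, Pou2af1 and Mzb1). Of these, Cd79b, Ebf1, Fcer2a and Mzb1 passed under every alternative in which they were tested. The call was lost in 8 of 15 alternatives for Blnk, 7 of 16 for H2-Eb1, 5 of 16 for H2-Ab1, 2 of 16 for H2-Aa, and 1 each for Ms4a1 and Pou2af1, in both cases without WT 2. The summed level of the B cell list was 312 and 346 CPM in WT and 172 and 186 in KO, with Pax5 at 0 counts in all 4 libraries. Of 16 tested markers of CD8 T and NK cells, Gzma and Klrc1 fell and Ccl5 rose (Klrc1 was not called without WT 2, adjusted p = 0.227, or without KO 1, 0.254), and the summed level was 625 and 642 CPM in WT and 467 and 422 in KO. The myeloid list summed to 6.54 to 18.5 CPM with 4 of its 16 genes at 0, and 0 of 6 tested genes were called. Red cell genes, mainly globins, summed to 172, 35.9, 68.6 and 198 CPM. Whether these transcripts came from other cells was not tested, and neither was the part of such cells in the ribosomal protein values.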

How the data were processed

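Each library came as a deposited table of raw counts, whole numbers by gene symbol. The tools Bowtie2 and edgeR and the build mm10 appear, per the submitters' processing notes, without role or version. For counting tool, annotation, strand and multi-mapping the entry is: not given in the sources used here. Counts of 35 repeated symbols were summed (0 were members). Members and lists were chosen with earlier results of these data known. The comparison of KO with WT used edgeR 4.0.16 (R 4.3.3; TMM, filterByExpr, estimateDisp, glmQLFit, glmQLFTest, two-sided, all 4 libraries), with Benjamini-Hochberg adjustment over 11464 genes. Genes under an adjusted p of 0.05 are called. The standard error is the log2 fold change over the square root of F. Intervals are at 95% and cover these libraries only. The test was tested on simulated data. DESeq2 1.42.0 and limma 3.58.1 served as alternatives. Positions and transcripts are from GENCODE vM21 on GRCm38, matched by symbol (84 of 85), with a representative transcript chosen for each matched gene. The 36-base words of its last 200 bases were compared with all annotated transcripts of other genes.

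Named by rule were called members, the 4 highest and 4 lowest log2 fold changes at 10 CPM or more, the 5 most abundant members, the paralogues with their partners, the stalk, Rpl5, Rpl11, Rps6, Rpsa, Rps27a and Rps4x, and of each other list the called genes and up to 3 with the smallest p. The text gives values for some of the last group, and some genes the rule names are not reported here.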

Additional observations from a re-analysis of the deposited data

How the results depend on the processing

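Precision is set by 2 libraries per genotype. Under the 16 alternatives (other scalings, tools and filters, Rn45s left out, repeated symbols, replicate block, single libraries left out, and copy rows added, the last chosen after seeing the data), the median of the members stayed below 0, between -0.129 without WT replicate 1 and -0.066 without WT replicate 2, and 0 members were called higher. Members called lower numbered 4 with limma-voom and 2 each with no filter, with a filter of 10 CPM in 2 libraries and with the replicate block (Rps24 and Rps27 in these 3), and 0 to 9 when 1 library was left out. The genes called in all were 305, or 170 to 293 with 1 library left out (170 without KO replicate 1 and 184 without WT replicate 2). The difference in share was -0.712 to -0.326 percentage points with 1 library left out. The labels do not say whether same-numbered libraries were made together. Over all tested genes the deviations of same-numbered libraries had a correlation of 0.0111. The WT 2 to WT 1 and KO 2 to KO 1 log2 ratios had a correlation across genes of 0.404 for the 80 abundant members. For all genes of that level it was 0.037. Rn45s took 12.2% and 12.3% of counts in WT 1 and KO 1, and 11.6% and 11.6% in WT 2 and KO 2. The source of these values was not tested. With the replicate block 260 genes were called, the median was -0.095, and Rps24 and Rps27 had adjusted p = 0.00906 and 0.0451. Library size alone placed the median of all genes at 0.022. Of 30 named members with a value, 23 moved by over 1.5 times on the log2 scale in at least 1 of the 4 fits without 1 library.

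Log2 fold changes with the other sign, none of them called in that setting, were found for Rps27l (0.0022) and Rpl7 (0.014) with library size only and for Rplp0 (-0.0039) with upper quartile scaling. With 1 library left out, values ran from -0.123 to 0.097 for Rpl7, -0.0092 to 0.022 for Rplp0, -0.018 to 0.091 for Rpl22l1, -0.034 to 0.147 for Rps2, -0.0086 to 0.482 for Rpl39l, -0.059 to 0.425 for Rps4l, -0.40 to 3.08 for Hba-a2, -0.36 to 1.96 for Hbb-bt, -0.77 to 1.90 for Hbb-bs and -0.052 to 0.517 for Myc. The 3 globins were called higher without WT replicate 1. The causes were not tested.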
